A study of Mus musculus with 16 samples.

Results

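The comparison described here asked whether the origin of the DNA given to dendritic cells was reflected in the RNA of CIN tumours. It used the 8 CIN tumour libraries of a series of 16: 4 libraries from tumours of mice given dendritic cells loaded with DNA from MSI cells and 4 from mice given dendritic cells loaded with DNA from CIN cells. MSI stands for microsatellite instability, the replication-error phenotype of mismatch repair loss, and CIN for chromosomal instability. The members were chosen by their titles alone, with no measured value. MC38, a colon carcinoma line of C57BL/6 mice, was grown in the wall of the descending colon of C57BL/6 mice in an MSI and a CIN version, with 1 line for each. In the tumours described here the cancer cells were always the CIN version. Dendritic cells grown from bone marrow were exposed to 2 µg of DNA, free cytosolic DNA or micronuclei, by lipofection for 30 minutes. Mice received these cells intraperitoneally on days 1, 6 and 12, and their tumours were harvested on day 15. The 4 groups were therefore MSI micronuclei, CIN micronuclei, MSI free DNA and CIN free DNA, with 2 libraries each. Equal RNA amounts from 3 biological replicates were combined before sequencing, and whether each library is its own pool is not stated, so p-values measure the spread between libraries, part of which may be technical. None of the 16 libraries is labelled as coming from mice given dendritic cells without DNA, so each value compares one DNA with the other.

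DNA in the cytosol is sensed by cGAS, which makes a cyclic dinucleotide that activates STING. STING then leads, through TBK1 and IRF3, to type I interferon, and interferon acts through its receptor on a large set of antiviral genes. In dendritic cells the same signal goes with antigen presentation and with chemokines that attract T cells. Mismatch repair deficient colorectal tumours are known for strong T cell infiltration, and chromosomally unstable ones for micronuclei, small nuclear bodies that hold missegregated chromosomes. The libraries were made from whole tumours, so fewer cells of a type and less RNA per cell cannot be told apart.

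The tissue in the 8 libraries was not uniform, and this touches every result below. The total per library was 11561955 to 17937501 counts. Total counts, genes detected, the mitochondrial share and the share of the 10 highest genes did not separate the DNA sources in two-sided exact permutation tests of 4 against 4 libraries (p = 0.114 to 0.486, with 0.0286 the smallest possible and 0.457 to 0.486 after Benjamini-Hochberg adjustment over the 4 measures). MSI micronuclei library 1 stood apart on the first principal component, which held 62.4% of the variance: its score was -150.5, and those of the other 7 libraries were -18.9 to 69.7. The summed level of 28 colon epithelium genes was 549.1 CPM (counts scaled to the library's total) in that library and 7916 to 21220 CPM in the others, and 5 of 18 tested B and plasma cell genes had no read there. The 23 tested skeletal muscle genes summed to 478.4, 441.4 and 321.4 CPM in the MSI micronuclei libraries 1 and 2 and MSI free DNA library 2 and to 507.6 CPM in CIN free DNA library 2. In the remaining 4 libraries they summed to 124.6 to 147.0 CPM, with 1 to 6 of the genes at 0. Thus 3 of 4 MSI DNA libraries and 1 of 4 CIN DNA libraries were rich in muscle transcripts. Acta1, the actin of skeletal muscle fibres, was at 81.4, 59.1, 2.34 and 51.4 CPM with MSI DNA. With CIN DNA it was at 3.34, 3.35, 5.92 and 98.2 CPM. Here and below, values per library follow the order micronuclei 1, micronuclei 2, free DNA 1, free DNA 2.

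**Figure D1:**
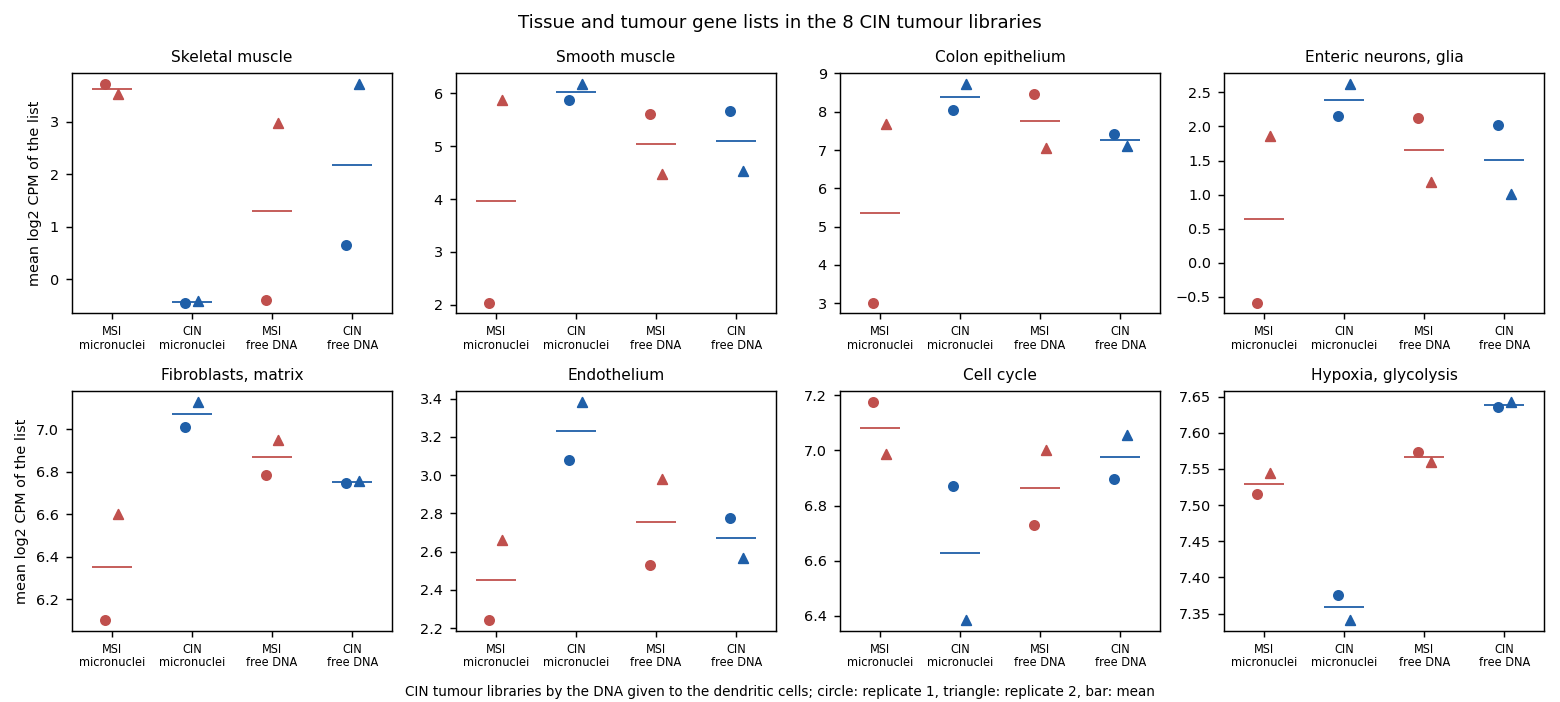
Mean log2 CPM of 8 tissue and tumour gene lists (y axis) in each of the 8 CIN tumour libraries, grouped by the DNA given to the dendritic cells (x axis, red for MSI DNA, blue for CIN DNA). Circles are replicate 1, triangles replicate 2 and bars the mean of each pair. The colon epithelium value of MSI micronuclei library 1 is 3.02 and those of the other libraries are 7.06 to 8.72.

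No gene passed the test of DNA source in CIN tumours. edgeR's quasi-likelihood test with DNA form as a covariate, over 17604 genes, gave 0 genes at an adjusted p under 0.05, and DESeq2 gave 0 as well. At an unadjusted p under 0.05 edgeR counted 183 genes, 1.04% of those tested, and DESeq2 244. With no difference a share near 0.05 would be counted, and edgeR counted fewer than that. This fit also counts a source difference that depends on DNA form as spread. The 0 genes therefore do not show an absence of difference. Of the 183, 59 were higher with MSI DNA (0.335%) and 124 lower (0.704%). All 4 MSI DNA libraries lay above all 4 CIN DNA libraries in 91 genes (0.517%) and below them in 117 (0.665%). The common biological coefficient of variation was 0.355. The genes given below as values are those with the smallest unadjusted p among protein-coding genes whose libraries did not overlap, members of the gene lists, and a set of immune and tumour genes named whatever their result. Every adjusted p from edgeR's test of the 8 libraries was 0.996 for these genes, except for Ifng and Ifit2, both at 0.999. Fold changes are log2, MSI DNA against CIN DNA, with their standard errors (SE).

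Of the 10 genes of this kind that were higher with MSI DNA, 9 are described. S100a4, a calcium-binding protein of motile cells (ENSMUSG00000001020, GRCm38 chromosome 3, 90603771 to 90606045), was at 33.1, 26.1, 44.2 and 29.4 CPM with MSI DNA and at 24.96, 16.3, 16.9 and 19.4 CPM with CIN DNA. The groups did not overlap, and the narrowest gap lay between MSI micronuclei library 2 and CIN micronuclei library 1. The fold change was 0.77 (SE 0.21).

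Another 2 of them belong to chromosome duplication and segregation. Gins3, a subunit of the GINS complex of the replicative helicase, was at 25.4, 27.1, 20.9 and 22.8 CPM with MSI DNA and at 16.8, 14.2, 18.5 and 19.1 CPM with CIN DNA. Cenpw, a kinetochore protein, was at 20.6, 14.1, 16.3 and 16.7 CPM with MSI DNA and at 11.7, 9.80, 13.4 and 13.1 CPM with CIN DNA. In both genes the libraries of the 2 sources lay apart and close to each other. The fold changes were 0.49 (SE 0.15) for Gins3 and 0.50 (SE 0.18) for Cenpw. The other 6 were Nr6a1, an orphan nuclear receptor, Megf11, Zrsr2, a splicing factor of minor introns, the zinc finger genes Zfp658 and Zfp821, and the homeobox gene Dlx1, with fold changes of 0.24 (Zrsr2) to 0.93 (Megf11).

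Of the 10 genes that were lower with MSI DNA, 1 encodes a collagen, 1 a fibroblast protease and 1 is interferon-induced. Col8a2, a short-chain collagen (ENSMUSG00000056174, chromosome 4, 126286793 to 126314330), was at 1.02, 1.14, 0.830 and 1.25 CPM with MSI DNA and at 4.24, 5.21, 3.58 and 1.26 CPM with CIN DNA. CIN free DNA library 2 was level with the MSI DNA libraries, and the other 3 CIN DNA libraries were well above them. The fold change of -1.66 (SE 0.44) was the farthest from 0 of the 20 genes. Fap, fibroblast activation protein, a protease of activated fibroblasts, was at 1.28, 1.14, 1.74 and 1.61 CPM with MSI DNA and at 3.02, 5.77, 2.39 and 1.89 CPM with CIN DNA. Its fold change was -1.10 (SE 0.43). The other 7, besides Ifi35, were Ehd3, Hap1, Matk, S1pr3, a receptor for sphingosine 1-phosphate, Tbc1d8, Cyp2j9 and Pcca, a subunit of the propionyl-CoA carboxylase of mitochondria, with fold changes of -0.998 (Cyp2j9) to -0.29 (Pcca).

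**Figure D2:**
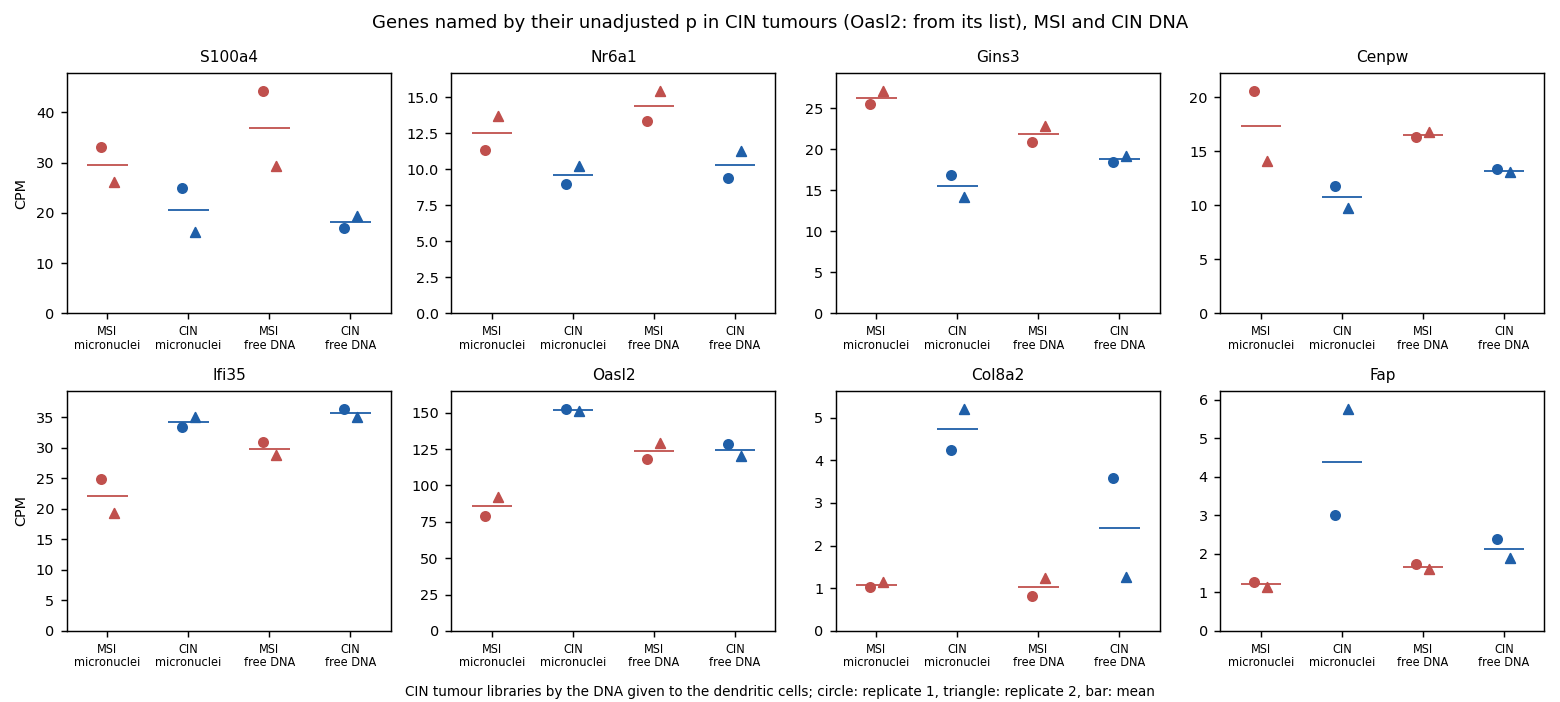
CPM of 8 genes (y axis, from 0) in each CIN tumour library, grouped by DNA source and form (x axis, red for MSI DNA, blue for CIN DNA); circles are replicate 1, triangles replicate 2, bars the mean of each pair. In the upper row and in Ifi35, Col8a2 and Fap no MSI DNA library crosses a CIN DNA library, while Oasl2 lies apart within micronuclei, at 79.2 and 92.0 against 153 and 151 CPM, and overlaps within free DNA.

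Interferon-induced genes lay on the lower side with MSI DNA as a group, by small amounts. Of 38 type I interferon response genes 37 were tested, and 36 of the 37 had a fold change below 0, beside 49.6% of all tested genes. The median was -0.28 and that of all tested genes was 0.00. Without the filter on low counts 37 of 38 were below 0, with a median of -0.30. The mean log2 CPM of the list was 4.56, 4.69, 4.96 and 5.18 with MSI DNA and 5.00, 5.38, 5.11 and 5.11 with CIN DNA. The 2 MSI micronuclei libraries were lowest, and MSI free DNA library 2 lay among the CIN DNA libraries, so the groups overlapped. None of the 37 passed edgeR's adjusted threshold, and 2 had an unadjusted p under 0.05 (0.704% of all tested genes in this direction).

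The promoters of 3 genes of this list are printed to show the motif by which interferon-induced genes are known, in 2 genes that hold it and 1 that does not. RefSeq windows of the 150 bases before the start site (GRCm38.p6) were searched for GAAA followed after any 2 bases by GAAA, or, for the other strand, TTTC followed after any 2 bases by TTTC. This is the repeated core of the interferon-stimulated response element. A match was found in 10 of the 29 type I interferon list genes that had a window (34.5%), in 9 of 16 of the interferon gamma list (56.2%) and in 219 of 12067 tested genes (1.81%). It was found in 2 of 19 MHC class I genes, 1 of 10 MHC class II genes and 0 of 15 T cell genes. Capitals mark the matched letters.
Ifit1: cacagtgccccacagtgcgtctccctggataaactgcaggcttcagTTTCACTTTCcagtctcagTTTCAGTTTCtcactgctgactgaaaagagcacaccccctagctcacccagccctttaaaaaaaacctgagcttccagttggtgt
Isg15: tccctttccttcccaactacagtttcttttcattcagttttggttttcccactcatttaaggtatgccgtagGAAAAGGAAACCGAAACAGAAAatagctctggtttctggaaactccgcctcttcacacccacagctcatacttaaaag
Ifi35: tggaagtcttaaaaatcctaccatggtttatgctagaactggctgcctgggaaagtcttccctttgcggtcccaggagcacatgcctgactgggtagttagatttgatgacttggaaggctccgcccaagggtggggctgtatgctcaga
The Ifit1 window is chr19:34640739-34640888 on the plus strand and holds 2 matches. The Isg15 window is chr4:156200819-156200968 on the minus strand, with 3 overlapping matches that end 56 bases before the start site. The Ifi35 window, chr11:101448262-101448411 on the plus strand, holds no match to these letters.

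Ifi35, an interferon-induced leucine zipper protein (ENSMUSG00000010358, chromosome 11, 101448407 to 101458698), had the smallest unadjusted p of the list. It was at 24.9, 19.3, 30.9 and 28.8 CPM with MSI DNA and at 33.4, 35.1, 36.4 and 35.0 CPM with CIN DNA. No MSI DNA library reached the lowest CIN DNA library, and the fold change was -0.44 (SE 0.14). Of all tested genes 0.665% lay without overlap in this direction. Isg20, an exonuclease that degrades viral RNA, was the only other member without overlap: 9.13, 12.0, 11.6 and 12.5 CPM against 14.8, 14.5, 14.8 and 13.3 CPM. Per length, Isg15, the ubiquitin-like modifier, was higher than either at a mean of 32.4 FPKM over the 8 libraries, beside 17.3 for Ifi35 and 6.74 for Isg20.

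Other genes of the list overlapped between the sources. Oasl2, an oligoadenylate synthetase-like protein (ENSMUSG00000029561, chromosome 5, 114896936 to 114912234), was at 79.2, 92.0, 118 and 129 CPM with MSI DNA and at 153, 151, 128 and 120 CPM with CIN DNA. Only its micronuclei libraries lay apart, and the fold change over both forms was -0.42 (SE 0.17). Ifit1, which binds foreign RNA ends, was at 23.2, 21.9, 32.8 and 39.6 CPM with MSI DNA and at 32.6, 45.0, 38.0 and 37.3 CPM with CIN DNA. For Ifit1 the free DNA libraries overlapped and the micronuclei libraries did not. Isg15 was at 20.6 to 26.8 CPM with MSI DNA and at 23.2 to 30.6 CPM with CIN DNA. Zbp1, a sensor of Z-form nucleic acids, was at 36.4, 49.99, 54.4 and 55.1 CPM with MSI DNA and at 62.1, 63.8, 54.7 and 60.3 CPM with CIN DNA, with a single crossing between the free DNA libraries. The fold changes were -0.42 (SE 0.18) for Ifit1, -0.21 (SE 0.14) for Isg15 and -0.31 (SE 0.14) for Zbp1. Rsad2, the antiviral enzyme viperin, was at -0.28 (SE 0.23). Ifit2, at 0.01, was the 1 member above 0.

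The size of the interferon difference, more than its sign, depended on single libraries. Leaving out CIN micronuclei library 2 moved the list's median to -0.14, with 33 of 37 genes below 0. Without MSI micronuclei library 1, the library that stood apart, all 37 were below 0 with a median of -0.24. With the skeletal muscle score as a covariate 35 of 37 were below 0 with a median of -0.23. In the 4 libraries poor in muscle transcripts, where MSI DNA was represented by free DNA library 1 alone, 26 of 37 were below 0 with a median of -0.20, and Irf7 turned to 0.30 and Isg15 to 0.02.

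Genes induced by interferon gamma, the T and natural killer cell interferon, also lay slightly lower with MSI DNA. Of the 25 listed and tested, 24 were below 0, with a median of -0.20. At an unadjusted p under 0.05 there were 3, beside 0.704% of all tested genes in this direction. The list's mean log2 CPM was 6.14, 6.02, 6.29 and 6.51 with MSI DNA and 6.58, 6.20, 6.60 and 6.54 with CIN DNA. CIN micronuclei library 2 lay below the other 3 CIN DNA libraries and within the MSI DNA range. The median moved to -0.10 without CIN micronuclei library 1 and to -0.13 without MSI free DNA library 1, and was -0.31 in the libraries poor in muscle transcripts.

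The 3 members with the smallest unadjusted p were a chemokine, a metabolic enzyme and a transcription factor. Cxcl9, which attracts CXCR3-bearing T cells, was at 137, 137, 151 and 153 CPM with MSI DNA and at 197, 151, 166 and 184 CPM with CIN DNA. The sources lay apart within micronuclei and within free DNA, with a fold change of -0.27 (SE 0.11). Irf1 was at 242, 214, 262 and 278 CPM against 333, 259, 332 and 284 CPM, again apart within each form, with a fold change of -0.28 (SE 0.12). Ido1, which degrades tryptophan and restrains T cells, was at 2.05, 7.07, 4.60 and 2.86 CPM with MSI DNA and at 5.79, 11.7, 7.92 and 7.16 CPM with CIN DNA. Its micronuclei libraries overlapped, and the fold change was -0.98 (SE 0.41).

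Other interferon gamma readouts stood closer to 0. Cxcl10, a second CXCR3 ligand, was at -0.24 (SE 0.15). It was at 130 to 189 CPM with MSI DNA and 136 to 217 CPM with CIN DNA. Cd274, which encodes the checkpoint ligand PD-L1, was at 54.6, 58.3, 54.3 and 89.2 CPM with MSI DNA and at 68.1, 55.2, 75.1 and 69.4 CPM with CIN DNA. MSI free DNA library 2 was above all others, and the fold change of -0.07 (SE 0.16) was smaller than its error. Ifng itself was at 2.39, 2.36, 3.32 and 2.38 CPM against 4.49, 1.49, 2.23 and 2.07 CPM, a fold change of 0.04 (SE 0.40).

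Among antigen presentation genes, class II lay farther below 0 than class I. Of 15 tested class II and costimulation genes (of 16), 14 were below 0 with a median of -0.43. An unadjusted p under 0.05 was found for 5, beside 0.704% of all tested genes in this direction. Without the filter all 16 were below 0 with a median of -0.48. Of 22 class I genes 19 were below 0, with a median of -0.16 and 1 gene at an unadjusted p under 0.05. The class I median was -0.07 without CIN micronuclei library 1, -0.09 without MSI micronuclei library 2 and -0.25 without CIN free DNA library 2, and it was -0.07 with the skeletal muscle score as a covariate and -0.10 in the libraries poor in muscle transcripts. The class II list's mean log2 CPM was 4.49, 4.85, 5.13 and 4.98 with MSI DNA and 5.38, 5.59, 5.67 and 4.71 with CIN DNA. Of the CIN DNA libraries 3 were above every MSI DNA library, and CIN free DNA library 2, the one rich in muscle transcripts, was below all MSI DNA libraries but one. With the skeletal muscle score as a covariate the class II median was -0.22, with 13 of 15 below 0. None then had an unadjusted p under 0.05 in edgeR's test. That count was also 0 without MSI micronuclei library 1, MSI micronuclei library 2, CIN micronuclei library 2 or CIN free DNA library 1. It was 1 without MSI free DNA library 2, 2 without CIN micronuclei library 1 and 7 without MSI free DNA library 1. Without CIN free DNA library 2 it was 12 of 16, with a median of -0.62. Without CIN free DNA library 1 the median was -0.30.

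Cd74, the invariant chain that guides class II molecules, was at 552, 691, 742 and 659 CPM with MSI DNA and at 886, 1028, 1114 and 646 CPM with CIN DNA. H2-Eb1, a class II beta chain, was at 184, 177, 226 and 185 CPM with MSI DNA and at 249.3, 315, 373 and 182 CPM with CIN DNA. H2-Aa, an alpha chain, was at 218, 269, 273 and 256 CPM against 344, 384, 410 and 230 CPM. All 3 genes shared one pattern: CIN free DNA library 2 was within the MSI DNA range and the other 3 CIN DNA libraries were above it. The fold changes were -0.48 (SE 0.19), -0.54 (SE 0.21) and -0.43 (SE 0.19). H2-Oa, a class II modulator found mainly in B cells, was at 0.256, 0.894, 1.28 and 1.07 CPM against 2.77, 3.41, 4.56 and 0.566 CPM. B2m, the light chain of class I, was at 1600 to 1924 CPM with MSI DNA and 1550 to 1971 CPM with CIN DNA, a fold change of -0.06 (SE 0.12).

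**Figure D3:**
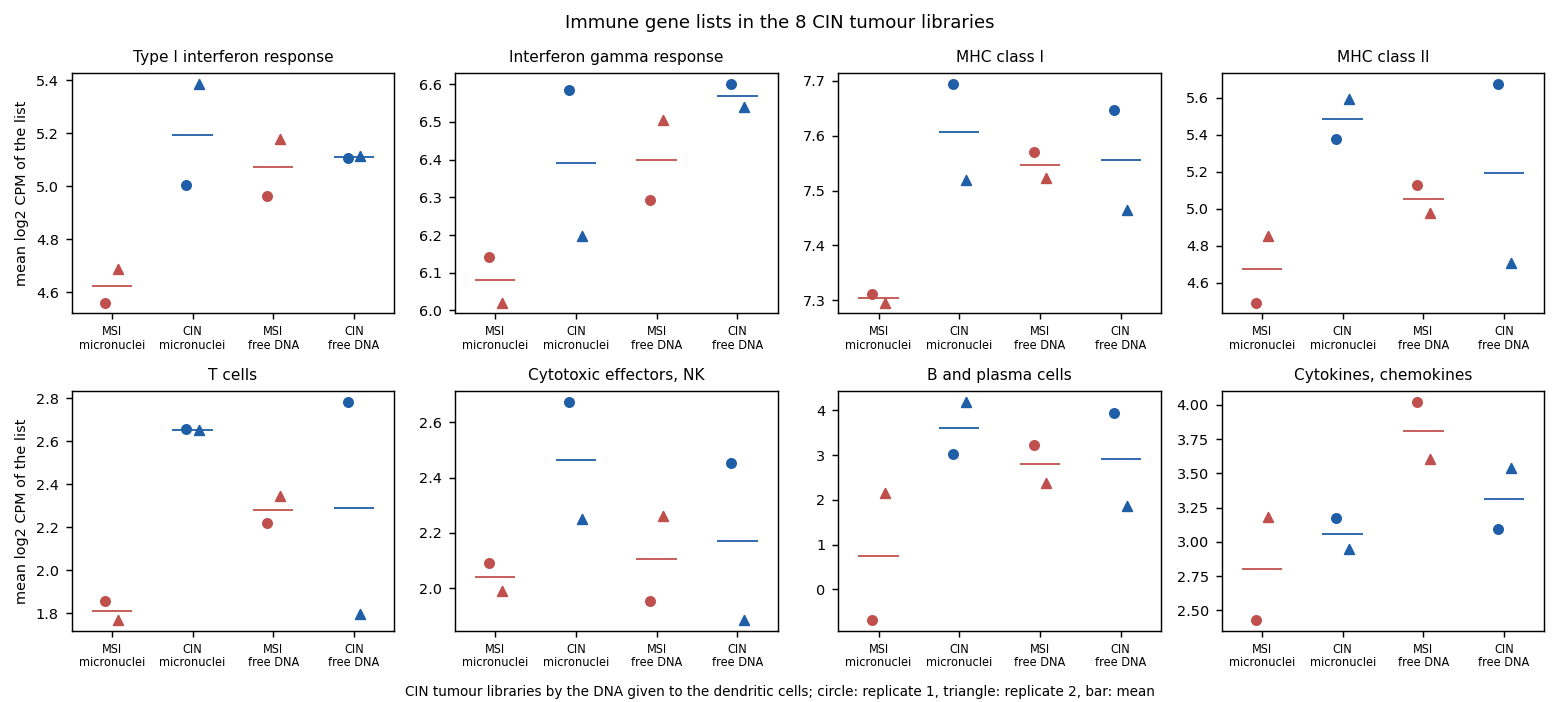
Mean log2 CPM of 8 immune gene lists (y axis) in each CIN tumour library, grouped by DNA source and form (x axis, red for MSI DNA, blue for CIN DNA); circles are replicate 1, triangles replicate 2, bars the mean of each pair. Within micronuclei both MSI libraries lie below both CIN libraries in 7 of the panels, and in the cytokine panel they lie on either side of them; within free DNA the pairs overlap in 6 of the panels.

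Lymphocyte genes were lower with MSI DNA in number, with wide spreads. Of 28 T cell genes 27 were below 0, with a median of -0.44, and 0 had an unadjusted p under 0.05. The T cell list's mean log2 CPM was 1.86, 1.77, 2.22 and 2.34 with MSI DNA and 2.65, 2.65, 2.78 and 1.80 with CIN DNA. CIN free DNA library 2 was again among the lowest, and the median was -0.68 without it. With the skeletal muscle score as a covariate 21 of 28 were below 0 and the median was -0.19. Cd2, an adhesion receptor of T cells, was at 3.42, 2.11, 2.64 and 2.21 CPM with MSI DNA and at 5.22, 5.46, 8.30 and 1.82 CPM with CIN DNA. Cd4, the helper T cell coreceptor, was at 1.02, 2.84, 3.77 and 2.92 CPM against 5.55, 6.76, 7.92 and 2.14 CPM. In both genes a single CIN DNA library, free DNA 2, lay within or below the MSI DNA range. The fold changes were -1.01 (SE 0.45) for Cd2 and -1.12 (SE 0.51) for Cd4. Trbc2, a T cell receptor beta constant gene, was at -0.61 (SE 0.29) and Ccr7, the lymph node homing receptor, at -0.66 (SE 0.43). Cd8a, the coreceptor of cytotoxic T cells, overlapped at 19.6, 13.0, 22.7 and 19.1 CPM against 25.5, 22.4, 21.3 and 16.5 CPM, a fold change of -0.20 (SE 0.21).

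Cytotoxic and natural killer genes gave 16 of 19 tested members (of 21) below 0, with a median of -0.29. The median moved with single libraries: it was -0.12 without CIN micronuclei library 1 (13 of 19 below 0), -0.15 without CIN free DNA library 1, -0.17 without MSI micronuclei library 2, -0.19 without MSI free DNA library 1 and -0.44 without CIN free DNA library 2. It was -0.09 with the skeletal muscle score as a covariate and -0.43 in the libraries poor in muscle transcripts. Gzmc, granzyme C of activated killer cells, was at 7.51, 14.3, 8.68 and 11.2 CPM with MSI DNA and at 19.4, 12.3, 23.7 and 12.9 CPM with CIN DNA, a fold change of -0.71 (SE 0.29). The groups overlapped through MSI micronuclei library 2. Gzmb, granzyme B, was at 15.0 to 26.5 CPM against 13.5 to 33.7 CPM (-0.12, SE 0.30) and Ccl5, a chemokine of activated T cells, at 17.2 to 28.02 CPM against 12.4 to 26.9 CPM (-0.09, SE 0.27). Il2rb was at -0.29 (SE 0.19).

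B and plasma cell genes had the widest gap of the immune lists and the least even libraries. All 18 tested genes (of 19) were below 0, with a median of -1.48, and 0 had an unadjusted p under 0.05. The list's mean log2 CPM was -0.69, 2.15, 3.22 and 2.38 with MSI DNA and 3.02, 4.19, 3.94 and 1.87 with CIN DNA. MSI micronuclei library 1 was below every other library, and the median was -1.08 without it, with 18 of 19 below 0. It was -0.95 without CIN micronuclei library 2, and -0.57 with the skeletal muscle score as a covariate. Blk, a B cell kinase, was at 0, 0.569, 2.87 and 1.31 CPM against 2.86, 4.53, 7.11 and 1.19 CPM. Tnfrsf13c, the BAFF receptor, was at 1.81 to 3.07 CPM against 1.95 to 8.62 CPM (-1.11, SE 0.49) and Fcer2a at 1.28 to 3.76 CPM against 1.32 to 9.44 CPM (-1.38, SE 0.62).

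Dendritic cell genes gave 15 of 19 tested members (of 22) below 0, with a median of -0.20. It was -0.08 without CIN micronuclei library 2, -0.39 without CIN free DNA library 2 and -0.38 in the libraries poor in muscle transcripts. Flt3, the receptor that sustains dendritic cell progenitors, was at 0.256, 0.081, 1.43 and 0.775 CPM with MSI DNA and at 0.979, 2.48, 2.39 and 1.07 CPM with CIN DNA. The free DNA libraries crossed, and the fold change was -1.75 (SE 0.73). Itgax, which encodes CD11c, was at 15.3 to 21.0 CPM against 13.8 to 29.4 CPM (-0.38, SE 0.23). Xcr1, a receptor of cross-presenting dendritic cells, was at 1.20 to 2.62 CPM against 0.817 to 2.30 CPM (0.21, SE 0.45). Myeloid lists lay near 0. Of 25 macrophage and monocyte genes 17 were above 0, with a median of 0.05. Of 11 tested neutrophil genes (of 18) 8 were above 0, with a median of 0.14. Neither value was stable. The macrophage median ranged from -0.04 without MSI free DNA library 2 to 0.11 without MSI micronuclei library 2, and in the libraries poor in muscle transcripts it was -0.24, with 22 of 25 below 0. The neutrophil median was 0.05 without MSI free DNA library 2 and 0.21 to 0.54 without any other, with 13 or 14 genes tested. It was 1.00 in the libraries poor in muscle transcripts.

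Inflammatory cytokines and chemokines lay on the higher side with MSI DNA. Of 28 tested genes (of 30) 21 were above 0, beside 50.4% of all tested genes, with a median of 0.20. The list's mean log2 CPM was 2.43, 3.18, 4.02 and 3.60 with MSI DNA and 3.17, 2.95, 3.09 and 3.54 with CIN DNA. The 2 MSI free DNA libraries were highest and MSI micronuclei library 1 lowest. The median was 0.08 without MSI free DNA library 1, with 16 of 28 above 0, and 0.10 without CIN free DNA library 1, but 0.32 without CIN micronuclei library 1. In the libraries poor in muscle transcripts, with MSI DNA in 1 library, it was 0.63, with 19 of 28 above 0. Il6 was at 1.37, 3.74, 40.3 and 5.42 CPM with MSI DNA and at 1.63, 3.29, 2.82 and 11.8 CPM with CIN DNA. A single library, MSI free DNA 1, carried the fold change of 0.90 (SE 0.84), which was -0.16 without it.

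The DNA sensing pathway itself showed no common direction. Of 22 tested genes (of 26) 15 were below 0, with a median of -0.10, and 0 had an unadjusted p under 0.05. The median was -0.05 to -0.06 without MSI micronuclei library 1, MSI micronuclei library 2 or CIN micronuclei library 2. Mb21d1, the gene of cGAS, was at 12.3, 9.92, 5.74 and 10.4 CPM with MSI DNA. With CIN DNA it was at 8.40, 6.39, 7.49 and 7.86 CPM. Both micronuclei libraries and MSI free DNA library 2 were above every CIN DNA library, MSI free DNA library 1 was below them all, and the fold change was 0.33 (SE 0.25). Tmem173, the gene of STING, was at 49.2, 46.6, 61.0 and 52.4 CPM against 58.3, 45.5, 54.9 and 54.0 CPM (-0.03, SE 0.12). Irf7, which amplifies interferon production, was at 26.2, 49.3, 88.5 and 55.6 CPM against 83.2, 107, 70.4 and 52.8 CPM, with the micronuclei libraries far apart and the free DNA libraries mixed (-0.55, SE 0.40).

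Proliferation genes lay slightly higher with MSI DNA and stromal genes lower. Of 26 cell cycle genes 25 were above 0 with a median of 0.17, and 0 had an unadjusted p under 0.05. Mki67, the proliferation marker, was at 621, 587, 399 and 623 CPM with MSI DNA and at 443, 382, 442 and 641 CPM with CIN DNA. The high libraries were the same 4 that were rich in muscle transcripts. In the 4 others 23 of 26 cell cycle genes were below 0 with a median of -0.18, and with the skeletal muscle score as a covariate the median was 0.00 (14 of 26 below 0). It was 0.06 without MSI micronuclei library 1, 0.02 without CIN micronuclei library 2, 0.31 without MSI free DNA library 1 and 0.27 without CIN free DNA library 2. DNA mismatch repair genes followed: 12 of 13 above 0 with a median of 0.11, which was -0.33 in the libraries poor in muscle transcripts, -0.02 without MSI micronuclei library 1 and 0.22 without MSI free DNA library 1. Hypoxia and glycolysis genes had a median of 0.05, with 20 of 24 above 0, and of -0.12 in the libraries poor in muscle transcripts. Leaving out 1 library gave -0.01 (MSI micronuclei library 1) to 0.10 (MSI free DNA library 1).

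Fibroblast and matrix genes gave 17 of 26 below 0 with a median of -0.18, and endothelial genes 16 of 20 with a median of -0.26. Erg, an endothelial transcription factor, was at 0.939, 0.650, 0.679 and 2.32 CPM with MSI DNA. With CIN DNA it was at 3.59, 3.29, 2.39 and 1.70 CPM (-1.23, SE 0.53). Only MSI free DNA library 2 lay within the CIN DNA range. Lyve1, of lymphatic vessels, was at 1.28, 1.95, 2.49 and 2.92 CPM against 4.49, 8.87, 3.04 and 2.20 CPM (-0.99, SE 0.51). Lpl, lipoprotein lipase, was at 4.18 to 8.05 CPM against 7.82 to 27.6 CPM (-0.92, SE 0.43). Cldn5, a tight junction protein of vessels, was at -0.62 (SE 0.36). The fibroblast median was 0.02 in the libraries poor in muscle transcripts and -0.08 to -0.11 without any 1 of the micronuclei libraries. The endothelial median was -0.14 without CIN micronuclei library 2, -0.17 without MSI micronuclei library 1 and -0.40 without MSI free DNA library 2.

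The values of colon wall genes rested on the library that stood apart. Of 28 colon epithelium genes 27 were below 0 with a median of -0.48. Without MSI micronuclei library 1 the median was 0.14, with 9 of 28 below 0, and it was 1.14 in the libraries poor in muscle transcripts, while without MSI free DNA library 1 it was -1.05. Epcam, an epithelial adhesion molecule, was at 12.3, 364, 672 and 255 CPM with MSI DNA and at 493, 701, 264 and 227 CPM with CIN DNA. Clca1, a goblet cell secretory protein, was at 23.8 CPM in MSI micronuclei library 1 and at 647 to 1970 CPM in the other 7. Smooth muscle genes were all below 0 (17 of 17 tested, median -0.58, and -0.15 with 14 of 17 below 0 without that library, but -1.32 without MSI micronuclei library 2), and Des, the muscle intermediate filament, was at 25.3 CPM in it and at 106 to 316 CPM in the others. Skeletal muscle genes were on the opposite side, with 22 of 23 tested genes (of 24) above 0 and a median of 1.48, which was 0.47 without CIN micronuclei library 2 and 3.18 without CIN free DNA library 2.

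Split by DNA form, with 2 libraries against 2, more genes had a small unadjusted p within micronuclei than within free DNA. Within micronuclei the skeletal muscle genes summed to 478.4 and 441.4 CPM with MSI DNA and to 124.6 and 138.5 CPM with CIN DNA. DNA source and muscle content therefore cannot be told apart within micronuclei. Within free DNA the sums were 147.0 and 321.4 CPM against 143.7 and 507.6 CPM. edgeR gave 0 genes past the adjusted threshold in either form, with all 4 groups sharing one estimate of spread. At an unadjusted p under 0.05 there were 1903 genes within micronuclei (10.8%) and 85 within free DNA (0.483%). The test of the difference between the forms gave 0 genes past edgeR's adjusted threshold and 1437 at an unadjusted p under 0.05 (8.16%). DESeq2 passed 59 genes within micronuclei, 15 higher and 44 lower with MSI DNA, and 15 in the test of the difference between forms. Without MSI micronuclei library 1 DESeq2 passed 5 genes within micronuclei, of which 4 were among the 59, and 12 in the difference, of which 8 were among the 15. The calls therefore differed between the tools. Leaving out that library also left 1 library against 2 within micronuclei. No other library was left out with DESeq2, so whether the change is particular to that library was not tested.

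**Figure D4:**
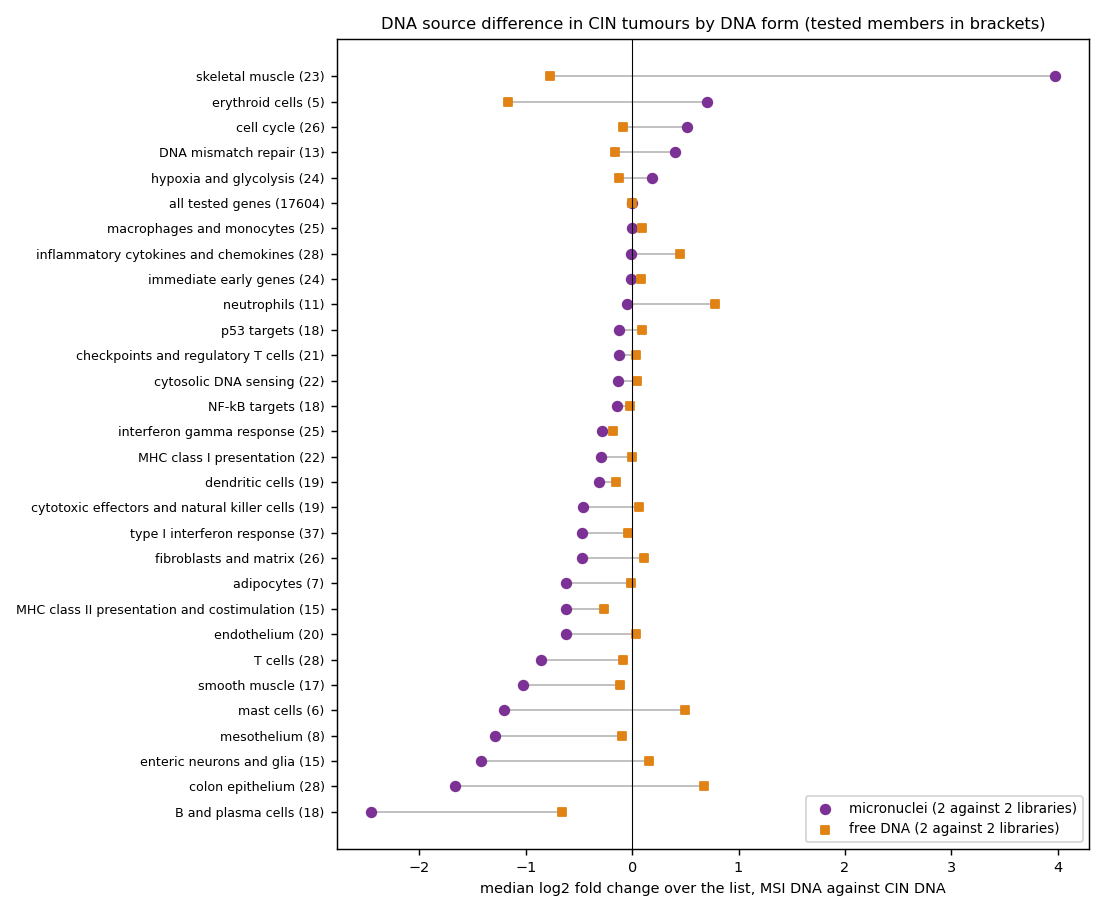
Median log2 fold change of each gene list, MSI DNA against CIN DNA (x axis), within micronuclei (purple circles) and within free DNA (orange squares), 2 against 2 libraries each, with the number of tested members in brackets on the y axis. All tested genes have medians of 0.00 in both forms; B and plasma cells reach -2.45 within micronuclei and skeletal muscle 3.98.

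The interferon difference followed this split, in which muscle content also differed between the sources within micronuclei. Within micronuclei 36 of 37 type I interferon genes were below 0, beside 49.8% of all tested genes, with a median of -0.47, and 14 had an unadjusted p under 0.05, beside 5.76% of all. Within free DNA 22 of 37 were below 0, beside 49.7% of all, with a median of -0.04, and none had an unadjusted p under 0.05 (0.239%). The difference between forms had a median of -0.43, with 7 of 37 at an unadjusted p under 0.05, beside 8.16% of all. Oasl2 had the smallest unadjusted p of the list within micronuclei: its difference was -0.83 within micronuclei and 0.00 within free DNA, with adjusted p = 0.451 from edgeR and 0.0003 from DESeq2 within micronuclei. Leaving out MSI micronuclei library 1 made DESeq2's adjusted p 0.648, while its fold change from DESeq2 went from -0.86 to -0.74. Irf7 was at -1.33 within micronuclei and 0.23 within free DNA, with DESeq2's adjusted p = 0.0236 and, without that library, 0.951; DESeq2's fold changes were -1.37 and -0.97.

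**Figure D5:**
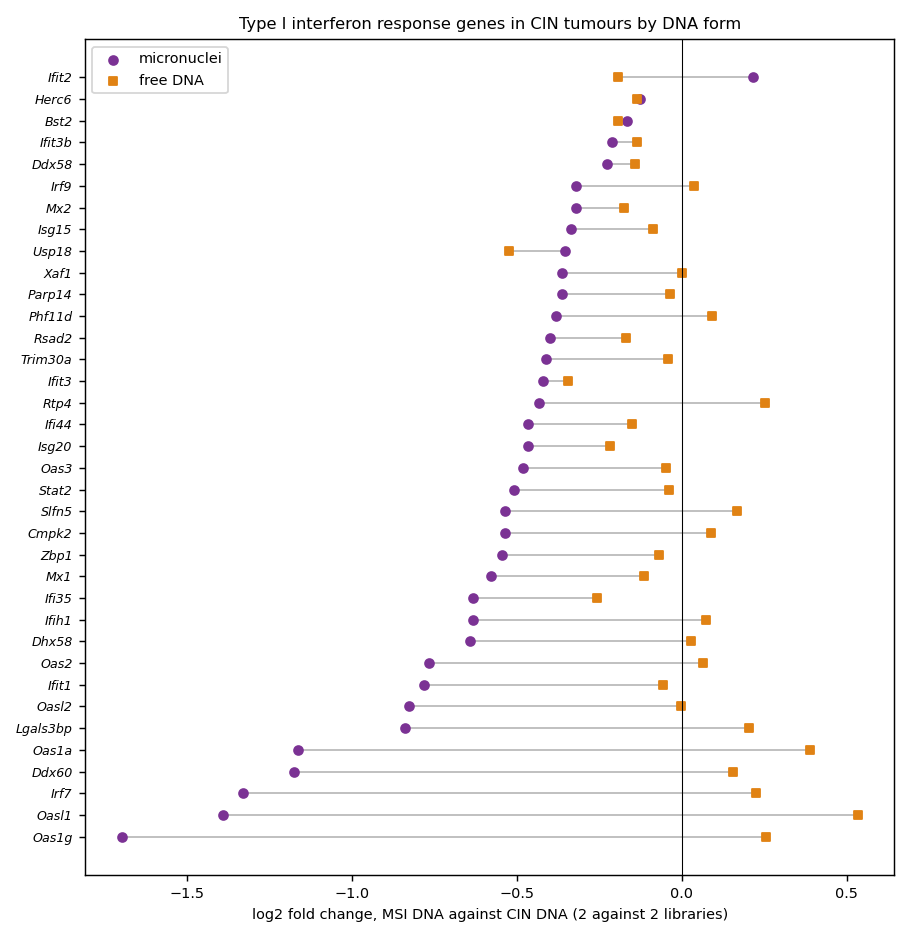
Log2 fold change of 36 of the 37 tested type I interferon response genes (1 is not drawn), MSI DNA against CIN DNA (x axis), within micronuclei (purple circles) and within free DNA (orange squares), 2 against 2 libraries each. Within micronuclei every gene drawn but Ifit2 lies below 0, and within free DNA the genes lie on both sides.

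Several other lists also differed in median between the forms. The median of T cell genes was -0.86 within micronuclei and -0.09 within free DNA. That of class I genes was -0.29 and 0.00, and that of cytotoxic genes -0.46 and 0.07. Class II genes stayed below 0 in both, at -0.62 and -0.27, as did interferon gamma genes, at -0.29 and -0.18. Cell cycle genes were at 0.52 within micronuclei, with 14 of 26 at an unadjusted p under 0.05 (5.05% of all in this direction), and at -0.08 within free DNA. Cytokines and chemokines were at -0.01 within micronuclei and 0.45 within free DNA, with 23 of 28 above 0. Skeletal muscle genes had medians of 3.98 and -0.77 and colon epithelium genes of -1.66 and 0.68, so both lists changed sign between the forms.

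Of the genes that DESeq2 passed within micronuclei, 5 are given here, chosen after their values were seen. They include all of these calls that also passed without MSI micronuclei library 1, so they do not stand for the rest. Among the rest were immunoglobulin genes such as Iglc2 (DESeq2 fold change -5.06) and skeletal muscle genes such as Mylpf (5.38). Thbs2, thrombospondin 2 of the matrix, was at 7.09 and 15.3 CPM with MSI micronuclei and at 54.7 and 45.2 CPM with CIN micronuclei, with the free DNA libraries between 14.4 and 24.9 CPM. Gpx3, a secreted glutathione peroxidase, was at 9.05 and 20.7 CPM against 64.7 and 75.8 CPM, with the free DNA libraries at 29.0 to 41.7 CPM. Sfrp1, a secreted Wnt antagonist, was at 4.70 and 21.5 CPM against 82.6 and 66.5 CPM. In all 3 the CIN micronuclei libraries were above every other library, and the genes also passed without MSI micronuclei library 1, with DESeq2 adjusted p values of 0.00138, 0.000297 and 0.000979. Cdsn, corneodesmosin of the cornified epidermis, went the other way: it was at 68.1, 48.9, 26.1 and 23.2 CPM with MSI DNA and at 16.5, 18.1, 55.2 and 40.3 CPM with CIN DNA. Its libraries did not overlap within either form, the fold change was 1.76 (SE 0.23) within micronuclei and -0.95 (SE 0.23) within free DNA, and the difference of 2.71 (SE 0.32) had an adjusted p of 0.435 from edgeR and 2.44e-07 from DESeq2. Without MSI micronuclei library 1 DESeq2's adjusted p for that difference was 0.000117. Col1a1, a chain of type I collagen, was at 657 and 770 CPM with MSI micronuclei and at 1218 and 1012 CPM with CIN micronuclei, and the call was lost without that library (DESeq2 adjusted p = 0.951), with DESeq2's fold change at -0.67 with it and -0.55 without it.

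Whether the DNA source difference was particular to CIN tumours was tested against the 8 MSI tumour libraries in one fit of all 16, which shares no library between the 2 tumour types. edgeR gave 0 genes past the adjusted threshold for this difference among 18777, with 285 (1.52%) at an unadjusted p under 0.05, and DESeq2 gave 2. In MSI tumours 36 of 37 type I interferon genes lay below 0 too, with a median of -0.26, where 62.7% of all tested genes were below 0. The difference between tumour types for these genes had a median of -0.01, and 0 of 37 had an unadjusted p under 0.05. Interferon gamma genes had medians of -0.20 in both, and class I genes -0.16 in CIN and -0.18 in MSI tumours.

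Lists of B cells, vessels and stroma had medians of opposite sign in the 2 tumour types. B and plasma cell genes had a median of -1.48 in CIN and 0.42 in MSI tumours. For the difference 2 of 18 had an unadjusted p under 0.05, beside 1.52% of all tested genes. Endothelial genes had medians of -0.26 and 0.27, with 6 of 20, and fibroblast genes -0.18 and 0.13, with 5 of 26. Skeletal muscle genes had medians of 1.48 and -1.64, with 6 of 23, so the muscle content moved with the same contrast and its part in these differences was not tested. Of the 2 genes that DESeq2 passed, Epha3, an ephrin receptor of mesenchymal cells, was at 0.0854, 0.244, 0.453 and 1.07 CPM with MSI DNA and at 5.14, 4.16, 1.52 and 1.26 CPM with CIN DNA in CIN tumours. Its sources did not overlap, and the difference between tumour types was -3.51 with an adjusted p of 0.000809 from DESeq2 and 1.00 from edgeR. The other was Scgb2b15, a secretoglobin, with an adjusted p of 0.0498 from DESeq2. Both were chosen after their values were seen.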

How the data were processed

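RNA was sequenced after poly-A selection, per the labels' protocols. The authors deposited counts per gene and FPKM values, which are counts per gene length and library total. The submitters' processing notes name fastp, HISAT2 2.0.5, featureCounts 1.5.0-p3 and the build GRCm39, but of 54495 genes also in GENCODE M21 the same GRCm38 coordinates stood in 53585, so coordinates are given as GRCm38. The sources used here do not give the strand setting, so overlapping genes on opposite strands cannot be told apart. 4 columns that matched no sample were not used.

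From the counts of 54532 genes, edgeR 4.0.16 in R 4.3.3 was run on the 8 CIN tumour libraries (11561955 to 17937501 counts) with TMM scaling, filterByExpr by group (17604 genes), DNA form as a covariate, robust quasi-likelihood fits and a Benjamini-Hochberg threshold of 0.05. Contrasts of group means gave the effects within each form and their difference, and a fit of all 16 libraries (18777 genes) the difference between tumour types. CPM use the TMM factors. DESeq2 1.42.0, other scalings, filters and covariates and leaving out each library were alternatives. The deposited FPKM values served only to compare levels between genes.

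Gene lists (29, with 597 of 598 symbols found, Mb21d1 and Tmem173 standing for Cgas and Sting1) are described by counts and medians without a test, and their level per library is the mean log2 CPM of the tested members. Named genes were the 10 protein-coding genes in each direction with the smallest unadjusted p among those whose mean log2 CPM was 1 or more and whose libraries did not overlap, the 3 members with the smallest unadjusted p of each list whose median lay 0.2 or more from that of all genes, and a fixed set; some of these are not reported here. The members and lists were chosen with earlier results of these data known. Replicate numbers entered only as a block in an alternative fit, and whether they pair the libraries was not settled. The scripts were tested on simulated data.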

Additional observations from a re-analysis of the deposited data

Results flagged for a closer look

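Groups of 4 libraries were searched for a value far from the other 3 (its gap to the nearest, divided by the group's range, above Dixon's 95% critical value). Of 198 groups 14 held one, and chance gives about 1 in 20.

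CIN micronuclei library 2 was apart from the other 3 CIN DNA libraries in 4 values: its mean log2 CPM was 6.20 for interferon gamma genes (others 6.54 to 6.60) and 6.03 for NF-kB targets (others 6.18 to 6.21), Tbc1d8 was at 19.67 CPM (others 13.4 to 14.4) and Lpl at 27.61 CPM (others 7.82 to 10.3). CIN free DNA library 2 was low for T cell genes at 1.80 (others 2.65 to 2.78). It was high for Il6 at 11.75 CPM (others 1.63 to 3.29) and Acta1 at 98.16 CPM (others 3.34 to 5.92). CIN micronuclei library 1 had 22763 genes detected and the others 23900 to 24086.

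Among MSI DNA libraries, free DNA 1 was apart in 4 genes: Il6 at 40.3 CPM (others 1.37 to 5.42), H2-Eb1 at 226.4 CPM (others 177 to 185), Ifng at 3.32 CPM (others 2.36 to 2.39) and Mki67, low at 399.1 CPM (others 587 to 623). MSI free DNA library 2 was high for Cd274 at 89.17 CPM (others 54.3 to 58.3), and MSI micronuclei library 1 for Dlx1 at 19.3 CPM (others 11.2 to 11.9).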

How the results depend on the processing

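The count of 0 genes for DNA source held under every alternative but one: without the 4 libraries rich in muscle transcripts 320 genes passed, 298 of them higher with MSI DNA, and MSI DNA was then represented by 1 library assumed to vary like the others. Leaving out each library gave 0 to 0. Within micronuclei DESeq2 passed 59 genes and edgeR without a filter on low counts 1749, while a filter at a mean log2 CPM of 1, chosen after seeing the data, gave 0; leaving out 1 library gave 0 to 1433, the latter without MSI micronuclei library 2, which leaves MSI micronuclei library 1 alone. Within free DNA the count was 36 without the filter. The difference between forms gave 15 with DESeq2, 1426 without the filter and 0 to 1305 leaving out 1 library, again with the high value without MSI micronuclei library 2. DESeq2 without MSI micronuclei library 1, chosen after seeing the data, gave 5 and 12. The difference between tumour types gave 2 with DESeq2. The cause was not tested. With the replicate block 0 genes passed and 170 had an unadjusted p under 0.05. For each gene, the deviation of replicate 1 from its group's mean log2 CPM was taken, and these deviations were correlated between groups. The correlations were 0.321 between the micronuclei groups, 0.417 between the free DNA groups and -0.359 to -0.025 between the forms. These few values do not settle whether the numbers pair the libraries.

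Named genes that changed sign without the muscle-rich libraries were Clca1 (0.39), Isg15 (0.015), Irf7 (0.30), Mb21d1 (-0.41), Mki67 (-0.18), Cd8a (0.066), Acta1 (-1.36), Epcam (1.32) and Tmem173 (0.12). With the skeletal muscle score as a covariate they were Mki67 (-0.017), Acta1 (-0.27), Epcam (0.11), Ccl5 (0.15) and Tmem173 (0.028), and with the colon epithelium score Epcam (0.15). Leaving out 1 library, genes that changed sign ranged from -0.16 to 1.29 (Il6), -0.11 to 0.47 (Xcr1), -0.12 to 0.004 (B2m), -0.24 to 0.049 (Cd274), -0.29 to 0.14 (Gzmb), -0.96 to 0.29 (Epcam), -0.34 to 0.05 (Ccl5), -0.091 to 0.046 (Tmem173) and -0.14 to 0.49 (Ifng). Whether the spread between 2 libraries a group or depth limited the differences of single genes was not tested.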
